A study of Mus musculus with 56 samples.

Results

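Cultures of activated CD4 T cells started at a low cell concentration, 62500 cells per ml, were compared between 48 and 72 h after activation. The comparison takes 5 of the 56 libraries of the series, chosen by the time and concentration on their labels: 3 libraries at 48 h and 2 at 72 h. All came from C57BL/6 mouse spleen. Naive CD4 T cells received beads coated with antibodies against CD3 and CD28, were kept in complete RPMI with no cytokines added, and were sorted as CD4-positive cells with no further split. The parallel cultures started at a high concentration, 1000000 cells per ml, gave 3 libraries at 48 h and 3 at 72 h, and were otherwise treated alike. Naive cells before activation and cultures of both concentrations at 18 and 30 h, with 3 libraries each, give the levels before this interval. RNA was counted per gene in 3′ end libraries made with poly-T primers.

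A naive CD4 T cell that meets its antigen receptor signal and the CD28 signal leaves the resting state, enlarges, makes ribosomes and nucleotides, secretes IL-2 and then divides. IL-2 binds its receptor on the same and on neighbouring cells and acts through STAT5, so the cytokine available to each cell depends on how many cells produce and consume it. As the receptor signal wanes, its immediate targets fall, and genes of quiescent and recirculating T cells, held down by that signal, can come back. S1pr1 and its regulator Klf2 belong to the latter genes.

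The 5 libraries held 1517530 to 2481924 counts and detected 11060 to 11487 genes, so none stood apart in depth. Levels are given as CPM, a gene's count scaled to a library total of 1e6. CD4 T cell markers were present in all 5: their 13 measured genes summed to 4850, 4600 and 4800 CPM at 48 h and to 7780 and 7710 CPM at 72 h. Markers of other cells were few. Of 14 B cell genes 8 were at 0 in all 5 libraries, Cd79a and Ms4a1 among them. The B cell sum was 152, 146 and 111 CPM at 48 h and 321 and 326 CPM at 72 h, and nearly all of it was Cd37, a tetraspanin that T cells also make, at 133, 132 and 88 and then 309 and 305 CPM. The summed level of 13 CD8 and natural killer cell genes was 17.8 to 26.1 CPM at 48 h and 20.6 and 19.5 CPM at 72 h, with 5 of them at 0 throughout. The 18 myeloid genes summed to 237 to 281 CPM and then 351 and 306 CPM, with 6 at 0, including Lyz1, Lyz2 and S100a8. Nearly all of that sum was Cst3 and Ctss. Cst3 was at 184, 148 and 153 and then 232 and 198 CPM, and Ctss at 91.2, 76.5 and 81.5 and then 104 and 96.7 CPM. Of 15 red cell and platelet genes 13 were at 0.

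The libraries differ in one further label. Each title ends in a second number, 1 or 2, whose meaning the labels do not give. Both 72 h libraries and 48 h replicate 1 carry number 2, while 48 h replicates 2 and 3 carry number 1. Naive libraries all carry number 1, so 72 h levels set beside naive cells below also differ in that number. Spearman correlations of the 72 h libraries, across genes, were 0.934 to 0.937 with 48 h replicate 1 and 0.907 to 0.918 with the other 48 h libraries. Counts of gene groups are therefore also given with 48 h replicate 1 as the only 48 h library where that moves them, which leaves 1 library against 2 of the same number, with the spread between libraries taken from all groups. The labels do not say whether libraries of a group came from separate mice or cultures, so p-values measure only the spread between libraries. In bulk RNA, a changed share of cells and a changed level per cell cannot be told apart.

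Between 48 and 72 h, 2386 of the 9239 genes tested changed at an adjusted p under 0.05 in edgeR's quasi-likelihood test with Benjamini-Hochberg adjustment, 25.8% of all genes tested. Of these 1314 rose (14.2%) and 1072 fell (11.6%), and 1266 (13.7%) changed at least 2-fold. Counts of list members below from this fit of all libraries are to be read beside these shares. The shares do not apply to list counts from fits with fewer libraries. The median log2 difference of all genes tested was 0.011. With 48 h replicate 1 alone, 915 genes were called. Of the 2386 calls, 2383 could be tested there, 2380 kept their sign, 882 were called in the same direction, and 216 moved by more than 1.5 times in fold. Leaving out 72 h replicate 1 left 1273 calls (733 higher, 540 lower) and leaving out 72 h replicate 2 left 1492 (851 and 641). Calls over all genes dropped in these fits and with 48 h replicate 1 alone. A lower count of list members there is therefore not by itself particular to the list.

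The 14 largest rises and falls among genes of at least median level give the outline of the change. The rises were led by Pdlim4, which encodes an actin-binding LIM protein. It stood at 6.78, 5.75 and 9.24 CPM at 48 h and at 74.4 and 67.2 CPM at 72 h, a log2 difference of 3.24 ± 0.24 (SE; adjusted p = 3.8e-15, edgeR). Irf7, a transcription factor of the interferon response, came next with 2.09, 2.88 and 2.01 CPM and then 20 and 23 CPM. The others were Arl4c, Rasgrp2, Ifi27, Drc1, Itgb3, Anxa2, Mov10, Rasa3, Sema4a, Pik3ip1, Kbtbd11 and S1pr4, with log2 differences from 3.11 to 2.50. Several of these act on small GTPases: Rasgrp2 activates Rap1, Rasa3 switches off Ras and Rap, and Arl4c is itself an Arf-like GTPase. In none of the 14 did a 48 h library reach the lower 72 h library, which was required of them. Over all genes tested the groups did not overlap in 28.1% that were higher and in 26.2% that were lower at 72 h, so a gap between the groups is common and by itself says little about a gene. In naive cells 11 of the 14 were at a mean of 116 CPM (Sema4a) to 556 CPM (S1pr4), and Drc1, Anxa2 and Mov10 were at 7.06, 9.80 and 26.4 CPM.

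The falls were led by Ccl4, a chemokine that activated T cells secrete, at 128, 83.4 and 77.5 CPM at 48 h and 3.75 and 4.72 CPM at 72 h, a 22.2-fold fall (log2 difference -4.47 ± 0.334, SE; adjusted p = 9.89e-15, edgeR). Il2 itself stood at 116, 73.7 and 70.3 CPM and then at 10.6 and 5.9 CPM, a 10.4-fold fall. The transcription factor genes Irf8 and Irf4 fell by 3.33 and 2.41 on the log2 scale. The rest were Rpph1, Dtx1, Zbtb32, Tnfsf11, Lad1, Gadd45b, Pdgfb, Nr4a3, Hivep3 and Tnfrsf9. A pair of them need care. Rpph1 is the RNA of ribonuclease P, made without a poly-A tail, so its level in libraries primed with poly-T is uncertain. Dtx1, a Notch pathway gene, rests on 22 counts over the 48 h libraries and 1 over the 72 h libraries. The ratio was 11.8, with an exact 95% interval of 1.91 to 487 that covers counting error only. Its adjusted p (edgeR) was 0.12 without 48 h replicate 3, 0.168 without 72 h replicate 1 and 0.617 with 48 h replicate 1 alone, and DESeq2 gave 0.0639. Leaving out 72 h replicate 2 moved Nr4a3 from a log2 difference of -2.69 to -3.32.

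**Figure D1:**
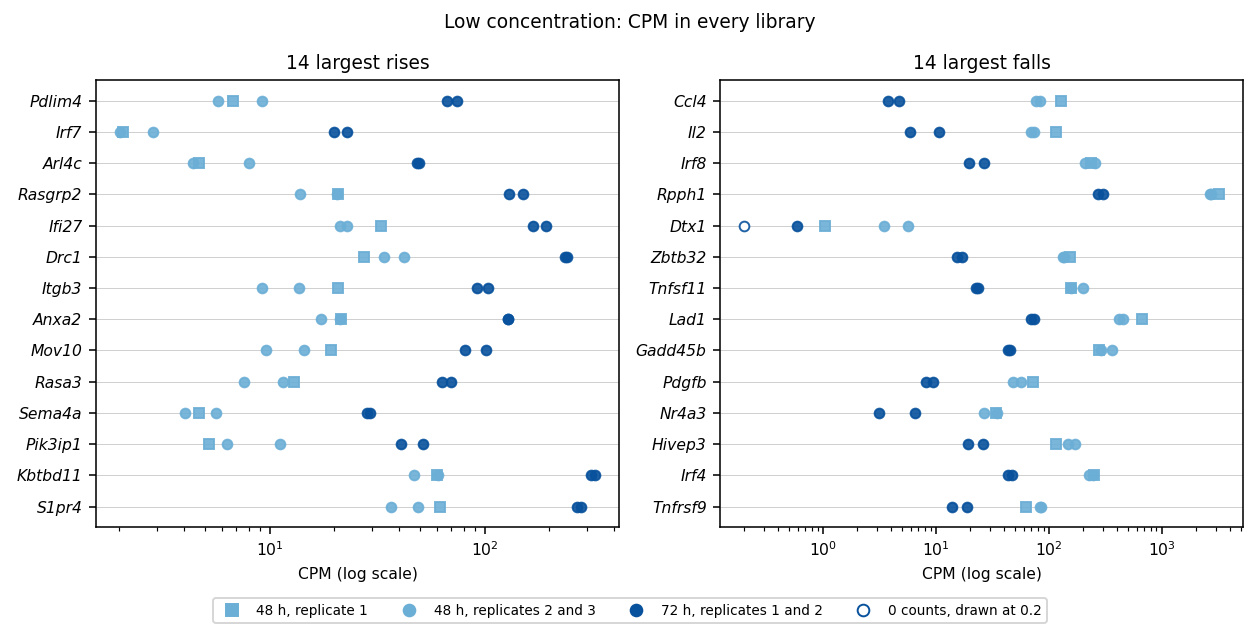
CPM (log axis) in each low-concentration library for the 14 largest rises (left) and 14 largest falls (right). Light symbols are 48 h libraries, the square being replicate 1, and dark symbols are 72 h libraries; the open circle marks a library with 0 counts of Dtx1, drawn at 0.2. The light and dark symbols do not overlap for any of the 28 genes, which is part of how they were chosen.

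The genes that the antigen receptor switches on early were lower at 72 h. Of 38 tested members of the early activation list, 21 fell and 2 rose, with a median log2 difference of -1.50 against 0.011 for all genes tested. The 2 rises became 1 without each library except 48 h replicate 1, and 3 without that one. With 48 h replicate 1 alone 19 fell, with a median of -1.40. Nr4a1, an immediate target of receptor signalling, stood at 194, 113 and 101 CPM at 48 h and at 33.1 and 34.8 CPM at 72 h. Cd69, which holds activated cells in tissue, went from 69.9, 71.3 and 52.2 CPM to 13.8 and 21.8 CPM. The groups of both genes did not overlap, as in 26.2% of all genes tested that were lower. Egr1, the phosphatase gene Dusp4 and the stress gene Gadd45b fell by 1.84, 2.73 and 2.80 on the log2 scale. Egr2, which encodes a factor that restrains T cell activation, rested on 41 counts at 48 h and 2 at 72 h, an 11-fold ratio (95% counting interval 2.85 to 93.8). With 48 h replicate 1 alone its adjusted p (edgeR) was 0.0822.

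A pair of costimulatory receptors of the tumour necrosis factor receptor family, both members of this list, also fell. Tnfrsf4 (OX40) stood at 1090, 1350 and 1300 CPM at 48 h and at 379 and 330 CPM at 72 h, and Tnfrsf9 (4-1BB) at 63.1, 85.7 and 84.3 CPM and then 13.8 and 18.9 CPM. Myc, the driver of growth in activated T cells, stood at 166, 96.1 and 94.8 CPM and then at 88.2 and 64.3 CPM. Its groups did not overlap, but its difference did not pass the test (log2 difference -0.64 ± 0.254, SE; adjusted p = 0.0578, edgeR). It passed with the replicate block (-0.68, adjusted p = 0.0467, edgeR), without 48 h replicate 2 or 3 (-0.78 in both, adjusted p = 0.0327 and 0.0345), with 48 h replicate 1 alone (-1.17, adjusted p = 0.00642), without a filter on low counts (-0.68, adjusted p = 0.0106) and with ribosomal protein genes left out of the scaling (-0.67, adjusted p = 0.0451). Without 48 h replicate 1 it was at -0.34 (adjusted p = 0.33). Il2ra, which this list also holds, did not pass either. Among helper cytokines and chemokines 8 of 21 tested genes fell and 3 rose, and 7 and 2 did with 48 h replicate 1 alone. Besides Il2 and Ccl4, Ccl3 fell by 3.51 on the log2 scale. Tnfsf11 (RANKL) fell from 158, 202 and 159 CPM to 22.5 and 23.6 CPM. Il9 had 76 counts over the 48 h libraries and 0 over the 72 h libraries. Its fall was 13.6-fold when 3 counts over the 72 h group are taken as the floor, and its 95% counting interval began at 10.8-fold. The 3 rises included Ltb, the lymphotoxin beta gene, and Osm, the oncostatin M gene, with log2 differences of 1.06 and 1.48. Ifng was at 0 in all 5 libraries, and Il4 had 0 counts at 48 h and 3 at 72 h, so neither could be tested.

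Growth machinery was lower at 72 h across several groups. Ribosome biogenesis genes, which process ribosomal RNA and assemble the subunits in the nucleolus, had 33 of 37 tested members lower and 0 higher, with a median log2 difference of -1.19. With 48 h replicate 1 alone 28 of them fell, with a median of -1.13. Nop16 stood at 201, 199 and 196 CPM at 48 h and at 54.4 and 54.3 CPM at 72 h. The nucleolar genes Ppan, Gnl3, Nhp2 and Nop2 fell by 1.74, 1.73, 1.42 and 1.34 on the log2 scale. The summed level of the list was 9050, 9990 and 9940 CPM at 48 h and 3780 and 4160 CPM at 72 h, close to the 2970 to 3380 CPM of naive cells.

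Polyamine and nucleotide synthesis had 18 of 26 members lower and 0 higher, with a median log2 difference of -0.98, and 13 fell with 48 h replicate 1 alone. Srm, the spermidine synthase gene, stood at 964, 928 and 1060 CPM and then at 275 and 285 CPM. The folate pathway genes Shmt1 and Mthfd1 fell by 1.61 and 1.18 on the log2 scale. Translation initiation and elongation factors had 12 of 21 lower and 0 higher, among them Eef1g, Eif5a and Eif4a1. That count was 7 without 72 h replicate 1, 8 without 72 h replicate 2 and 7 with 48 h replicate 1 alone. Among cytosolic ribosomal proteins, the structural parts of the finished ribosome, 15 of 56 fell and 0 rose, and the median was only -0.19. Rpl7a went from 3870, 4700 and 5140 CPM to 2680 and 2660 CPM. The count of falls was 6 to 8 without 48 h replicate 2, 48 h replicate 3 or either 72 h library, and 1 with 48 h replicate 1 alone. Many ribosomal protein genes have near-identical processed copies, so their counts are uncertain. Ribosomal protein genes took 28 to 28.5% of the counts at 48 h and 25.1 and 25.4% at 72 h. For mitochondrial ribosomal proteins 17 of 45 fell and 0 rose, with Mrpl12 lower by 1.04 on the log2 scale. That count was 9 without either 72 h library and 8 with 48 h replicate 1 alone.

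Heat shock chaperones and the proteasome had falls and 0 rises. Of 27 heat shock chaperone genes 20 fell and 0 rose, with a median of -0.84, and 14 fell with 48 h replicate 1 alone. Hspd1, the mitochondrial chaperonin HSP60, stood at 673, 680 and 741 CPM at 48 h and at 181 and 178 CPM at 72 h. Hspe1, its lid HSP10, went from 964, 885 and 808 CPM to 427 and 440 CPM. Of 25 secretory pathway chaperones 3 rose and 6 fell, beside 14.2% and 11.6% of all genes tested, with a median of -0.21. Those rises became 1 without 48 h replicate 2, 48 h replicate 3 or 72 h replicate 2 and 0 without 72 h replicate 1, and the falls 3 without 48 h replicate 2 or either 72 h library; with 48 h replicate 1 alone they were 0 and 2. Cct3, a subunit of the cytosolic chaperonin, and Hspa9, the mitochondrial HSP70, fell by 1.40 and 1.49. Of 31 proteasome genes 15 fell and 0 rose, Psmd7 among them. This count was 8 without 72 h replicate 1, 9 without 48 h replicate 3 and 5 with 48 h replicate 1 alone. Among targets of the amino acid response factor ATF4, 10 of 30 fell and 3 rose. Atf4 itself went from 584, 636 and 727 CPM to 348 and 317 CPM, and Mars, a methionyl-tRNA synthetase gene, fell by 1.09. The 3 rises became 1 without 48 h replicate 2 or either 72 h library, 2 without 48 h replicate 3 and 0 with 48 h replicate 1 alone.

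Hspd1 and Hspe1 lie head to head and share a promoter region. Their upstream sequences are shown because both genes fell and because both hold the same pair of heat shock elements. The sequences are from RefSeq, mouse build GRCm38.p6: the 150 bases before the Hspd1 start (chr1:55087933-55088082, minus strand) and before the Hspe1 start (chr1:55087998-55088147, plus strand). Capitals mark matches to the heat shock element, read as GAA, any 2 bases, TTC, any 2 bases and GAA, on either strand, overlapping one another.
Hspd1: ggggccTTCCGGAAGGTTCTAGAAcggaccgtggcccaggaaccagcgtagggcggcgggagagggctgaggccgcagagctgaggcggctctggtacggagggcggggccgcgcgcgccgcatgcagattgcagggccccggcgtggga
Hspe1: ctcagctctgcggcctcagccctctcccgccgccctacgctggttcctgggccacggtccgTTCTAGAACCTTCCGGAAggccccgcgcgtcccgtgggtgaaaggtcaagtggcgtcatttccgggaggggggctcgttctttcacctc
This motif was present in the 250 bases before the start in 3 of the 20 heat shock chaperone genes matched to the promoter table (15%), in 0.479% of all tested genes with a promoter there and in 0.514% of the whole table. Of the 3, Hspd1 and Hspe1 are each counted for the same elements in their shared region. The third was Dnajb6, with a log2 difference of -0.17 that did not pass the test. For the growth lists the E-box CACGTG was searched. It was present in 2 of 33 ribosome biogenesis promoters (6.06%) and in 4 of 22 polyamine and nucleotide synthesis promoters (18.2%; 4 of the 14 that fell), against 10.6% of tested genes and 6.86% of the whole table. A match describes the letters and shows no binding.

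Genes of cell division were higher at 72 h. Of 39 tested mitosis genes 17 rose and 0 fell, with a median log2 difference of 0.55. Cdc25b, the phosphatase that starts mitosis by activating CDK1, stood at 32.8, 24.7 and 27.3 CPM at 48 h and at 144 and 143 CPM at 72 h, a 5.06-fold rise (adjusted p = 4.68e-10, edgeR). Cyclin B2 (Ccnb2) went from 177, 216 and 208 CPM to 353 and 382 CPM, and Kif23, a motor of the midbody, from 54.7, 62.1 and 53.4 CPM to 109 and 103 CPM. The groups of these 3 genes did not overlap, as in 28.1% of all genes tested that were higher. Mki67, the proliferation marker, was at 125, 224 and 220 CPM and then at 236 and 217 CPM, which did not pass the test. The count of rises was 9 without 72 h replicate 1, 11 without 72 h replicate 2 and 6 with 48 h replicate 1 alone, where the median was 0.58. Birc5 (survivin) and Ccnf (cyclin F) rose by 0.75 and 0.94, but with 48 h replicate 1 alone they were at 0.48 and 0.52 with adjusted p (edgeR) of 0.14 and 0.319.

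DNA replication genes, in contrast, hardly moved: 5 of 44 rose and 3 fell, with a median of 0.00. The 5 rises became 2 without 48 h replicate 2, 48 h replicate 3 or either 72 h library, and 1 with 48 h replicate 1 alone. The 3 falls became 2 without 48 h replicate 1 and 0 without 72 h replicate 1 or with 48 h replicate 1 alone, and 1 without each other library. E2f2, a transcription factor of the G1 to S transition, rose from 64.1, 74.2 and 61.5 CPM to 228 and 225 CPM. Dnmt1, the maintenance DNA methyltransferase, had a log2 difference of 1.07 that was 0.50 (adjusted p = 0.451, edgeR) with 48 h replicate 1 alone, where it stood at 177 CPM against 89.2 and 105 CPM in the other 48 h libraries.

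Regulators of G1 moved in both directions. Of 21 tested genes 6 rose and 3 fell, beside 14.2% and 11.6% of all genes tested. Ccnd3, the main D-type cyclin of mature T cells, stood at 811, 530 and 511 CPM at 48 h and at 1560 and 1420 CPM at 72 h (log2 difference 1.27 ± 0.195, SE; adjusted p = 1.99e-06, edgeR). The CDK4 and CDK6 inhibitors also rose, Cdkn2c from 13, 12.1 and 7.63 CPM to 58.2 and 42.5 CPM, and Cdkn2d from 66.7, 73.1 and 75.1 CPM to 211 and 239 CPM. The 3 falls became 1 without 48 h replicate 2, without 72 h replicate 1 or with 48 h replicate 1 alone, and 2 without 48 h replicate 3 or 72 h replicate 2. Mxd3, a Max partner that opposes Myc, rose 5.13-fold, from 42.7, 38 and 32.5 CPM to 203 and 183 CPM.

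The promoter of Ccnf is shown because it holds the cell cycle homology region TTTGAA, a letter sequence common before mitotic genes, at 2 places. It spans the 150 bases before the start (RefSeq, GRCm38.p6, chr17:24251410-24251559, minus strand), with the matches in capitals.
Ccnf: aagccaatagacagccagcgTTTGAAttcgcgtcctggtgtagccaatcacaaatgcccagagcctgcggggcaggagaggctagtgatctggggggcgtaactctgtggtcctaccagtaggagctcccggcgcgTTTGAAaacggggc
This motif, on either strand, was present in 11 of 31 mitosis genes (35.5%), against 12.4% of tested genes and 18.3% of the whole promoter table. Of the 14 mitosis genes that rose and had a promoter, 7 held it.

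Genes of quiescent and recirculating T cells were higher at 72 h. Of 30 tested naive and central memory genes 14 rose and 2 fell, with a median log2 difference of 0.66, and 10 rose with 48 h replicate 1 alone. The 2 falls became 0 without 72 h replicate 1, 3 without 48 h replicate 1 and 1 without each other library or with 48 h replicate 1 alone. Klf2, the transcription factor that maintains quiescence and homing, stood at 19.8, 19.6 and 29.3 CPM at 48 h and at 127 and 122 CPM at 72 h, a 5.35-fold rise (adjusted p = 1.4e-11, edgeR). Its target S1pr1, the receptor for exit from lymph nodes, rose with it. S1pr1 went from 10.9, 6.9 and 12.9 CPM to 40 and 53.1 CPM. Neither gene had returned to the naive level, where their means were 669 and 264 CPM. Igfbp4, a growth factor binding protein gene expressed in naive T cells, had: it stood at 197, 173 and 218 CPM at 48 h, 979 and 998 CPM at 72 h and 955 CPM, on average, in naive cells. Cd27 and Pik3ip1, an inhibitor of phosphoinositide 3-kinase, rose by 1.81 and 2.55. The quiescence gene Btg2 rose by 1.02, which became 0.71 (adjusted p = 0.243, edgeR) with 48 h replicate 1 alone.

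Other naive genes did not move in this way. Il7r, the receptor for the survival cytokine IL-7, stood at 3.13, 8.63 and 8.43 CPM and then at 12.5 and 10 CPM, and Lef1 had a log2 difference of 0.48; neither passed the test. Ccr7, a chemokine receptor that guides T cells into lymph nodes, was at 687, 818 and 849 CPM and then at 613 and 617 CPM (log2 difference -0.35, adjusted p = 0.0523, edgeR). It passed with DESeq2 (adjusted p = 0.0222), with ribosomal protein genes left out of the scaling (adjusted p = 0.0357, edgeR) and without 48 h replicate 1 (adjusted p = 0.016, edgeR). Without that library Lef1 passed too (0.69, adjusted p = 0.0387, edgeR). Ly6c1, a surface protein of some naive and memory cells, had 1 count over the 48 h libraries and 40 over the 72 h libraries, a ratio of 74.6 (95% counting interval 12.6 to 3020), but it has a near-identical neighbour and is uncertain. Slpi, a secreted protease inhibitor gene, had 0 and 39 counts. Its ratio was 24.3 when 3 counts over the 48 h group are taken as the floor, and its 95% counting interval began at 18.8.

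Among chemokine receptors and homing genes 7 of 21 rose and 4 fell. Besides S1pr1 and S1pr4, the gut homing integrin chain Itgb7 rose from 94.9, 109 and 97.6 CPM to 546 and 473 CPM, and Itgb3 from 20.9, 9.21 and 13.7 CPM to 104 and 92.6 CPM. Selplg, the ligand of P-selectin, rose by 1.40 on the log2 scale. Ccr6, a receptor of Th17 and some regulatory cells, fell from 121, 109 and 91.6 CPM to 15.6 and 11.2 CPM, 7.96-fold. The 4 falls became 2 without 72 h replicate 1 or with 48 h replicate 1 alone, and 1 without 72 h replicate 2.

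Genes of the IL-2 and STAT5 list moved both ways, with more rises than falls. Of 26 tested IL-2 and STAT5 genes 11 rose and 4 fell, with a median log2 difference of 0.57, and 10 rose with 48 h replicate 1 alone. Socs2, a STAT5 target that limits the signal, stood at 256, 231 and 247 CPM at 48 h and at 607 and 599 CPM at 72 h. Socs3 went from 22.9, 17.8 and 17.7 CPM to 104 and 87.3 CPM, and Socs1 from 132, 136 and 121 CPM to 294 and 278 CPM. The groups of all 3 did not overlap, as in 28.1% of all genes tested that were higher. Il2ra, the chain that gives the IL-2 receptor its high affinity, was at 169, 268 and 254 CPM and then at 351 and 293 CPM, which did not pass the test (adjusted p = 0.0877, edgeR), but did with the second title number as a covariate (0.65, adjusted p = 0.0351) and with 48 h replicate 1 alone (0.88, adjusted p = 0.0394). Cish and Il2rb had log2 differences of 0.63 and 0.64 with adjusted p (edgeR) of 0.0135 and 0.0138. Neither passed with 48 h replicate 1 alone (0.26 and 0.47), without 48 h replicate 2 (0.52 and 0.56), without 72 h replicate 1 (0.59 and 0.63) or without 72 h replicate 2 (0.65 and 0.63), and Cish did not pass without 48 h replicate 3 (0.56). With the second title number as a covariate Il2rb was at 0.57 (adjusted p = 0.0604, edgeR). Pim2, a kinase gene that STAT5 and the antigen receptor induce, was among the 4 falls, from 455, 436 and 448 CPM to 132 and 116 CPM. Leaving out 72 h replicate 2 left 2 of these falls.

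Receptors for other cytokines were higher or not called. Of 17 tested common cytokine receptor genes 6 rose and 0 fell, and 4 rose with 48 h replicate 1 alone. Ifngr1, the interferon gamma receptor chain, stood at 26.6, 27.6 and 22.1 CPM and then at 93.2 and 82 CPM. Il17ra went from 76.1, 90.3 and 92 CPM to 222 and 182 CPM, and Il10ra from 8.86, 6.33 and 8.03 CPM to 25.6 and 36.6 CPM.

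Interferon response genes were higher at 72 h, but far from the naive level. Of 36 tested type I interferon response genes 14 rose and 1 fell, with a median log2 difference of 0.84. The Type I interferon response list summed to 1230, 1380 and 1350 CPM at 48 h and to 2140 and 2180 CPM at 72 h, against 5340 to 6000 CPM in naive cells. Ifi27 rose from 32.8, 21.3 and 22.9 CPM to 193 and 168 CPM, and Ifi27l2a from 363, 400 and 381 CPM to 939 and 979 CPM. Zbp1, a sensor of left-handed nucleic acid, and the exonuclease Isg20 rose by 1.61 and 2.00. Bst2 (tetherin) was the 1 fall, from 185, 173 and 169 CPM to 73.2 and 98.5 CPM. The count of rises was 8 without 72 h replicate 1 and 6 with 48 h replicate 1 alone, where the median was 0.80. Oas3, an RNA sensor of this list, had a log2 difference of 1.99 and an adjusted p (edgeR) of 0.00163 that became 0.0509 there.

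Of 33 tested interferon gamma and antigen presentation genes 14 rose and 2 fell, with a median of 0.64. Tapbp, which loads peptides onto MHC class I, stood at 139, 93.2 and 92.8 CPM and then at 290 and 282 CPM. Psmb9, an immunoproteasome subunit, rose by 1.09, which was 0.73 (adjusted p = 0.0504, edgeR) with 48 h replicate 1 alone. The count of rises was 8 without either 72 h library and 4 with 48 h replicate 1 alone. Irf8, described above, was one of the 2 falls, which were 1 without 72 h replicate 1 and 3 without 48 h replicate 1 or 3. The Gimap GTPases, which support lymphocyte survival, had 4 of 8 members higher and 1 lower. Gimap3 rose from 83.9, 74.2 and 71.9 CPM to 221 and 161 CPM, and Gimap7 rose by 1.46; the 1 fall was not called without either 72 h library or with 48 h replicate 1 alone.

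The promoters of Socs1, Oas3 and Bst2 are shown because all 3 hold the core of the interferon-stimulated response element while Bst2 differed from the others in direction. Each is the 150 bases before the start (RefSeq, GRCm38.p6): Socs1 at chr16:10785537-10785686, minus strand, Oas3 at chr5:120777660-120777809, minus strand and Bst2 at chr8:71537473-71537622, minus strand. Capitals mark matches to that core, read as GAAA, any 2 bases and GAAA, on either strand, and 2 matches overlap in Socs1 and in Bst2.
Socs1: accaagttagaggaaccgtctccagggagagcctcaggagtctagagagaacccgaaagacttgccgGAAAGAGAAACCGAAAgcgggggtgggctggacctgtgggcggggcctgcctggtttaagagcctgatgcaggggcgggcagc
Oas3: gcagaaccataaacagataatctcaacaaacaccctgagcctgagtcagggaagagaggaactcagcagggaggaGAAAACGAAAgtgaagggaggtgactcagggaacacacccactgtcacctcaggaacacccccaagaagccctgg
Bst2: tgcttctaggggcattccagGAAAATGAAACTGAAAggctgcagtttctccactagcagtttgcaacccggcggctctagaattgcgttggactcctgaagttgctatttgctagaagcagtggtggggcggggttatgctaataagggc
The core was present in 11 of 26 type I interferon response genes with a promoter in the table (42.3%) and in 10 of 25 interferon gamma and antigen presentation genes (40%), against 3.31% of tested genes and 3.46% of the whole table. Of the 10 type I genes that rose and had a promoter, 4 held it, a share of 40% beside the 42.3% of the list. The STAT element TTCNNNGAA was present in 3 of 22 IL-2 and STAT5 genes (13.6%), against 6.95% of tested genes and 8.13% of the whole table. Of the 3, Socs3 and Ltb rose, and Lta, with a log2 difference of -0.28, did not pass the test.

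**Figure D2:**
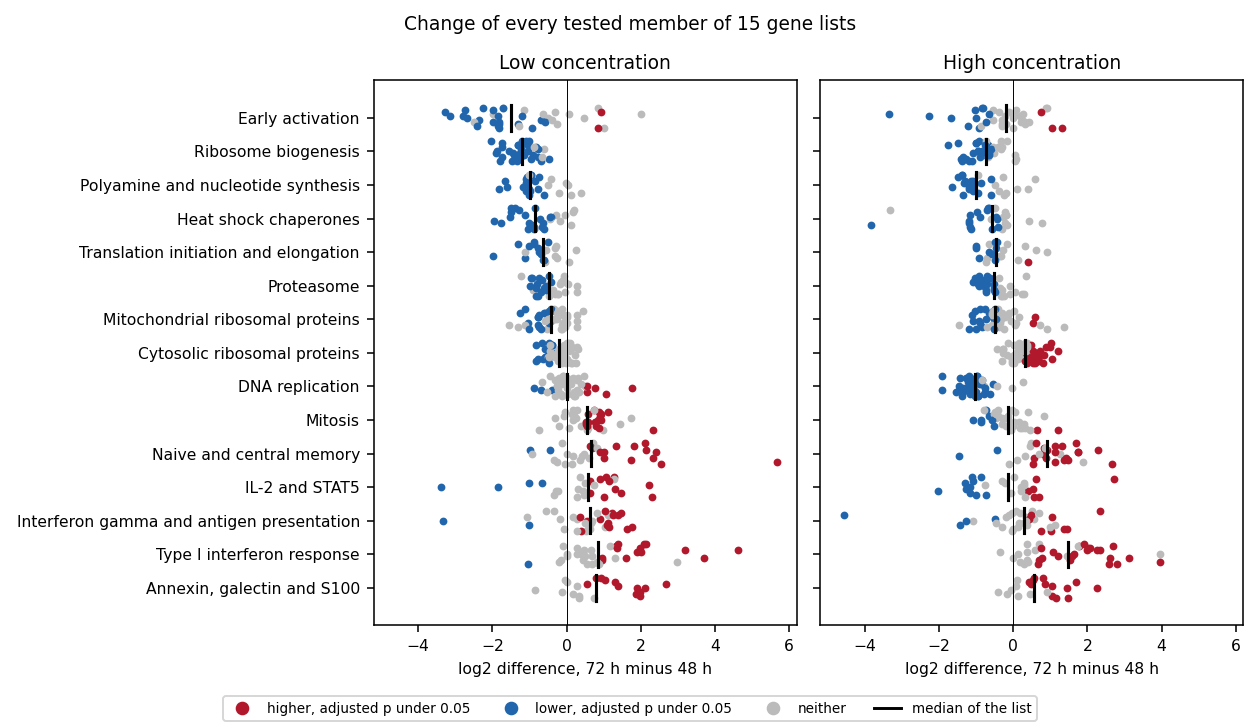
Log2 difference, 72 h minus 48 h, of each tested member of 15 gene lists at the low (left) and high (right) concentration; red and blue points passed an adjusted p of 0.05, and bars are list medians. At the low concentration the medians run from -1.50 for early activation to 0.84 for the type I interferon response, and DNA replication stands at 0.00 against -1.04 at the high concentration.

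Annexin, galectin and S100 genes, which many effector and memory T cells express, were higher at 72 h. Of 21 tested genes 12 rose and 0 fell, with a median log2 difference of 0.80, and 12 rose with 48 h replicate 1 alone. Anxa2, a calcium-dependent membrane protein, stood at 21.4, 17.3 and 21.3 CPM at 48 h and at 129 CPM in both 72 h libraries. Lgals1 (galectin 1) went from 564, 504 and 474 CPM to 2050 and 2040 CPM, and Crip1 from 377, 508 and 442 CPM to 1500 and 1800 CPM. Their groups lay far apart, and the 2 libraries at 72 h were close to each other. S100a6, S100a13, Vim (vimentin) and Capg, an actin capping protein, rose by 2.11, 1.88, 1.31 and 1.05. Crip1 was also high in naive cells, at 2010 CPM on average, whereas S100a6 was at 0 there.

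Among cytoskeleton genes 8 of 28 rose and 2 fell. Stmn1, a microtubule regulator of dividing cells, rose from 248, 170 and 178 CPM to 525 and 454 CPM, and Tmsb10, an actin-sequestering peptide, by 0.82. Lmna, the lamin A gene that the antigen receptor induces, fell from 45.4, 62.7 and 46.6 CPM to 11.9 and 7.67 CPM. Flna (filamin A) rose by 1.39, which was 0.94 (adjusted p = 0.0803, edgeR) with 48 h replicate 1 alone. The 8 rises became 5 without 72 h replicate 1 and 4 with 48 h replicate 1 alone.

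Glycolysis and hypoxia genes were called about as often as all genes tested (25.8%). Of 18 glycolysis genes 1 rose and 4 fell, and of 23 hypoxia genes 2 rose and 3 fell, with medians of -0.30 and 0.02. The glycolysis falls became 2 without 48 h replicate 1, 48 h replicate 3 or either 72 h library, and 1 with 48 h replicate 1 alone. Hk2, the inducible hexokinase, fell from 18.8, 12.7 and 14.9 CPM to 5 and 3.54 CPM, while Hk1, the constitutive one, had a log2 difference of 0.84 that was 0.40 (adjusted p = 0.393, edgeR) with 48 h replicate 1 alone. Of the hypoxia genes, Ndrg1 rose by 1.74 and Fam162a fell by 0.85. P4ha2, a collagen hydroxylase gene, had 2.09, 0 and 0.402 CPM at 48 h and 8.13 and 7.08 CPM at 72 h. Its log2 difference of 3.10 was 4.6 without 48 h replicate 1 and 1.78 (adjusted p = 0.115, edgeR) with that library alone. The hypoxia falls became 2 without 48 h replicate 3 and 1 without either 72 h library, and the 2 rises became 1 with 48 h replicate 1 alone. In the respiratory chain and ATP synthase, 1 of 52 genes rose and 3 fell, and the median was -0.01. The 1 rise became 2 without 48 h replicate 1 and 0 without each other library, with the replicate block or with 48 h replicate 1 alone, and the 3 falls became 1 without 72 h replicate 1.

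Survival genes moved in both directions. Of 17 tested Bcl2 family genes 4 rose and 3 fell, beside 14.2% and 11.6% of all genes tested. Bcl2, the survival factor of resting T cells, stood at 87.1, 76.5 and 86 CPM at 48 h and at 172 and 162 CPM at 72 h. Bcl2a1b, an activation-induced relative, had 38.1, 38 and 24.9 CPM and then 5.63 and 14.2 CPM, but it has near-identical copies and is uncertain. Its log2 difference of -1.73 was -2.57 without 72 h replicate 2. Mcl1 had a log2 difference of 0.64, which was 0.48 (adjusted p = 0.204, edgeR) with 48 h replicate 1 alone. The 4 rises became 2 without 72 h replicate 1 and 1 with 48 h replicate 1 alone. Of 17 p53 targets 2 rose and 5 fell; the falls became 2 without 48 h replicate 2, 3 without 72 h replicate 2, and 1 without 72 h replicate 1 or with 48 h replicate 1 alone.

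Several factors of the helper lineages had few counts in these cultures, which received no polarising cytokines. Ahr, which supports Th17 cells, had 70 and 3 counts, a ratio of 12.5 (95% counting interval 4.11 to 62.1). Ahr and Ccr6 were among the 4 falls in 5 tested Th17 genes, which became 3 with 48 h replicate 1 alone. Tbx21, the Th1 factor, and Prdm1, the effector factor Blimp1, had too few counts to test, 2 and 0 at 48 h and 3 and 1 at 72 h. Gata3, the Th2 factor, stood at 46.9, 70.8 and 59.8 CPM and then at 68.2 and 75.5 CPM, and Bcl6, the follicular helper factor, at 1.56, 1.15 and 3.21 CPM and then at 6.25 and 2.95 CPM; neither passed the test.

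Foxp3, the regulatory T cell factor, had 7.82, 6.33 and 6.83 CPM at 48 h and 46.3 and 18.3 CPM at 72 h. Its groups did not overlap, but the 72 h libraries differed from each other more than 2-fold. Its log2 difference of 2.19 (adjusted p = 6.66e-05, edgeR) was 1.37 (adjusted p = 0.0843) without 72 h replicate 1. Of 15 tested regulatory T cell genes 5 rose and 2 fell. Lrrc32, which anchors latent TGF-beta on activated regulatory cells, rose from 14.6, 15.5 and 12.5 CPM to 88.2 and 67.8 CPM. Ctla4 stood at 195, 151 and 160 CPM and then at 181 and 166 CPM, which did not pass the test. Ecm1, a secreted protein of Th2 cells, rose by 2.06.

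Of 11 coinhibitory receptor genes 0 rose and 2 fell, beside 14.2% and 11.6% of all genes tested. Pdcd1 (PD-1) went from 56.3, 73.1 and 43.8 CPM to 20.6 and 15.9 CPM, and Cd200 from 32.8, 36.8 and 38.6 CPM to 10 and 7.67 CPM. With 48 h replicate 1 alone 3 fell. Id2, a factor of effector cells, had 225, 154 and 155 CPM and then 123 and 175 CPM, with overlapping groups.

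Genes of the T cell receptor and CD4 identity were higher or not called, apart from 2 falls. Of 26 tested genes of the receptor complex and its proximal signalling 11 rose and 2 fell, and of the 13 CD4 identity genes 8 rose and 0 fell. Thy1, a surface protein of all mouse T cells, stood at 1330, 992 and 1190 CPM and then at 2790 and 2760 CPM. Cd2 and Cd247, the CD3 zeta chain, rose by 0.86 and 0.77. Cd4 and Cd3e had log2 differences of 0.25 and 0.63 that did not pass the test, though Cd3e did without a filter on low counts (adjusted p = 0.0214, edgeR) and with the compared groups alone (adjusted p = 0.00847, edgeR). Zbtb7b, the factor that sets the CD4 fate, had one of 1.19 that was 0.85 (adjusted p = 0.0662, edgeR) with 48 h replicate 1 alone. With that library alone the receptor complex had 6 rises and 0 falls and CD4 identity had 4 rises. Without 72 h replicate 2 the receptor complex had 7 rises. Its 2 falls became 0 without 48 h replicate 2 or 72 h replicate 1 and 1 without 48 h replicate 3 or 72 h replicate 2.

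The same interval at the high concentration changed a similar number of genes, 2170 (23.5% of those tested), with 1060 higher (11.5%) and 1110 lower (12%). These comparisons share no library. There were 899 genes called in both, 37.7% of the low calls and 41.4% of the high calls. Of these 776 moved the same way and 123 moved in opposite directions. Across the 9239 genes the log2 differences had a Pearson correlation of 0.30 and a Spearman correlation of 0.29, a description across genes, which are not independent. The test of the difference itself called 1161 genes (12.6%), 729 with a more positive change at the low concentration (7.89%) and 432 with a more negative one (4.68%). It called 434 of the low rises as more positive and 264 of the low falls as more negative than the high change.

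The high libraries at 48 h all carry second title number 2 and those at 72 h all carry number 1, so time and that number cannot be told apart at the high concentration, and every difference below rests on it. With the number as a term in the fit, 296 genes were called for the difference, and with 48 h replicate 1 as the only low 48 h library 285 were. Leaving out 72 h low replicate 1 left 556 calls, 72 h low replicate 2 left 668 and 48 h low replicate 2 left 771. The number's part in the difference was not tested further.

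**Figure D3:**
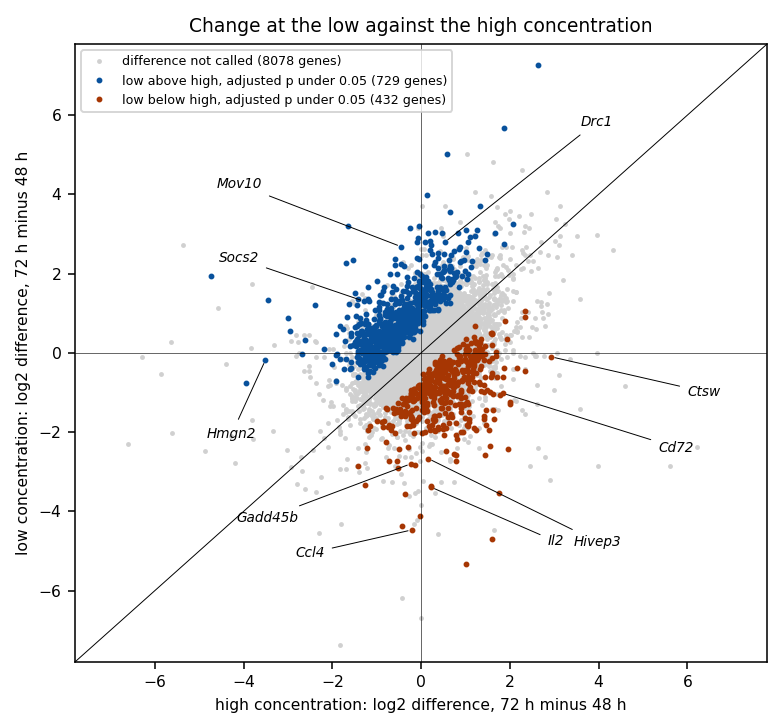
Log2 difference, 72 h minus 48 h, at the high concentration (x axis) against the low concentration (y axis), 1 point a gene for all 9239 genes tested. Coloured points passed the test of the difference between the concentrations, 729 with a more positive and 432 with a more negative change at the low concentration.

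Proliferation genes differed between the concentrations as groups. DNA replication genes had 39 of 44 lower and 0 higher at the high concentration, with a median of -1.04 against 0.00 at the low one, and the difference was called in 31. Their sum was 7630, 7320 and 7580 CPM and then 7950 and 7700 CPM at the low concentration, but 6700 to 7170 CPM and then 3300 to 3580 CPM at the high one. Mitosis genes had 2 higher and 7 lower at the high concentration against 17 and 0 at the low one, and the difference was called in 15, each more positive at the low concentration. Cytosolic ribosomal proteins moved apart as well, with 23 of 56 higher at the high concentration, and 23 differences called, each more negative at the low one. In ribosome biogenesis 24 of 37 genes fell at the high concentration, and 8 differences were called, each more negative at the low one. With the second title number as a covariate the differences called were 12 for DNA replication, 5 for mitosis, 14 for cytosolic ribosomal proteins and 1 for ribosome biogenesis. With 48 h low replicate 1 alone they were 15, 5, 9 and 1, and without 72 h low replicate 1 they were 21, 9, 15 and 3. Ribosome biogenesis had 5 without 72 h low replicate 2, 48 h low replicate 2, 48 h low replicate 3 or 72 h high replicate 1.

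Single genes also differed in direction. Socs2 rose at the low concentration and fell by 1.28 at the high one, where Ccnd3 fell by 0.86 and Thy1 by 0.60. The differences were 2.58, 2.13 and 1.84, with adjusted p (edgeR) of 6.47e-13, 1.95e-07 and 2.13e-08. Il2ra and Il2rb fell by 1.00 and 1.07 at the high concentration, and for both the difference was called (1.48 and 1.71). Of the 26 IL-2 and STAT5 genes the difference was called more positive in 12, and in 11 with the covariate, and more negative in 3 (1 to 4 with a library left out). Il2 and Ccl4 were already at 5.88 to 19.6 and 5.47 to 9.56 CPM at 48 h in the high cultures, with log2 changes of 0.22 and -0.21 from there. Hmgn2, a nucleosome-binding protein gene with many near-identical copies and hence uncertain, stood at 109, 129 and 123 CPM and then 113 and 99.7 CPM at the low concentration, and fell by 3.51 at the high one. Of the 38 early activation genes the difference was called more negative at the low concentration in 16, and in 10 with the covariate. Klf2, S1pr1, Cd27 and Pik3ip1 rose at both concentrations, and for none of the 4 was a difference called (differences of 0.67, -0.15, 0.50 and -0.12).

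**Figure D4:**
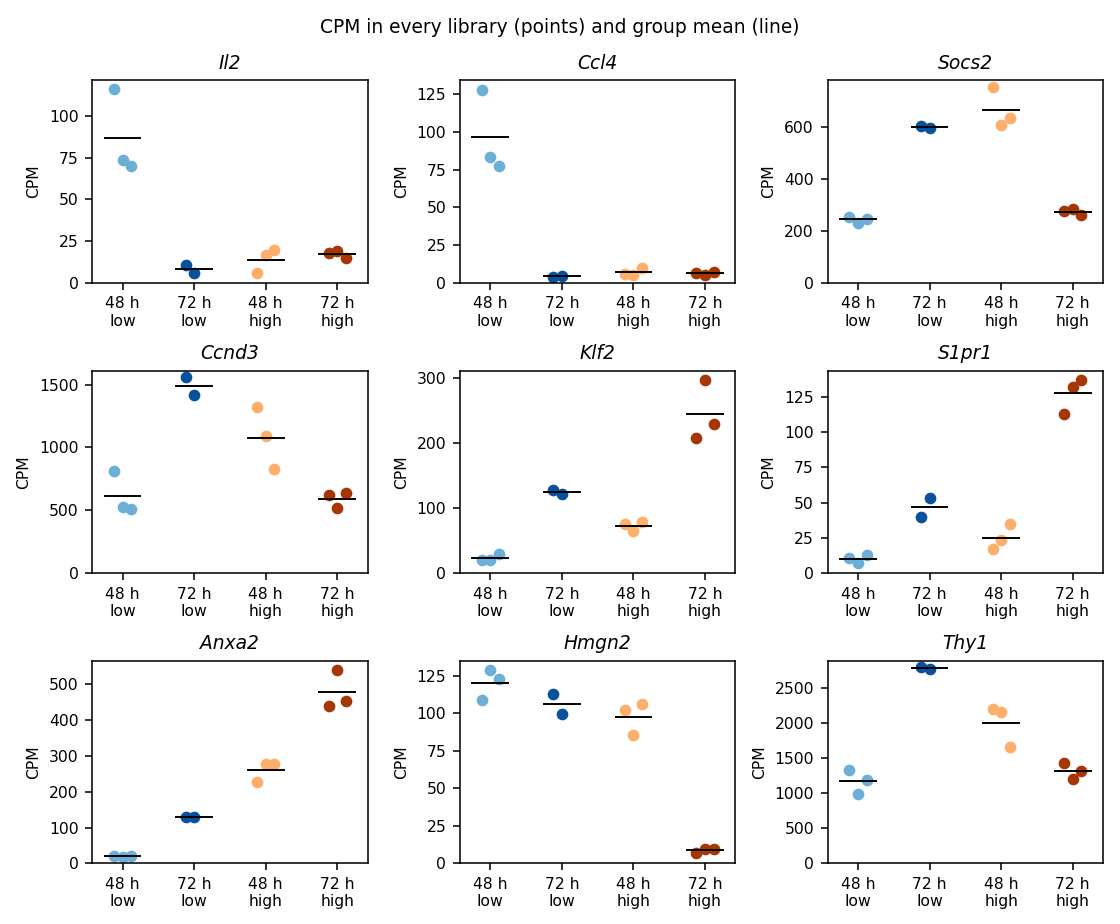
CPM of 9 genes in each library (points) with the group mean (line) at 48 and 72 h, low and high concentration. Il2 and Ccl4 were high only in the 48 h low libraries among these 4 groups, Socs2, Ccnd3 and Thy1 rose at the low and fell at the high concentration, and Hmgn2 fell at the high one.

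The 72 h low libraries were also set against the 48 h high libraries, a comparison chosen after the values were seen. All 5 of these libraries carry second title number 2. It called 733 genes (7.93%), 339 higher (3.67%) and 394 lower (4.26%) at 72 h low. The 2386 calls of the time comparison are not a like count, because 48 h low replicates 2 and 3 carry number 1. With each 48 h high library alone 614, 302 and 645 were called, the lowest with replicate 2. Mitosis, DNA replication and type I interferon response genes had medians of 0.40, 0.15 and -0.11. Of the metabolic lists, 17 of 23 hypoxia genes, 13 of 18 glycolysis genes, 19 of 30 ATF4 amino acid response genes and 16 of 30 cholesterol and fatty acid synthesis genes were lower at 72 h low, and 0 were higher, with medians of -2.30, -1.34, -1.02 and -1.0. In the tricarboxylic acid cycle and in the respiratory chain and ATP synthase 0 genes were called, with a median of 0.07 in both, and of 26 polyamine and nucleotide synthesis genes 2 were lower. Hk2, Ndrg1 and Fam162a were lower by 2.94, 2.77 and 1.76 on the log2 scale. Glycolysis genes summed to 5870 and 5780 CPM in the 72 h low libraries and to 12900 to 15100 CPM in the 48 h high ones. Early activation genes were also lower, 19 of 38, with Irf4 at a log2 difference of -2.12 and Tnfrsf9 at -2.88. Of 23 effector genes 11 were higher and 3 lower.

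Set within the whole course, the interval from 48 to 72 h continued some earlier movements and began others. All naive and 18 h libraries carry second title number 1, and all 30 h libraries carry number 2. Differences of these from one another, and of the 72 h low libraries from naive or 18 h cells, cannot be told apart from that number. Early activation genes summed to 10600 to 11100 CPM at 18 h, 7500 to 8070 CPM at 30 h, 5690 to 5790 CPM at 48 h and 3100 to 3260 CPM at 72 h, so the decline ran through the course. Ribosome biogenesis was at 12200 to 12900 CPM at 30 h and lower, at 9050 to 9990 CPM, at 48 h. It was at 3780 and 4160 CPM at 72 h. In the high cultures it was already at 5080 to 5530 CPM at 48 h. Annexin, galectin and S100 genes summed to 1730 to 1880 CPM at 18 h, 4670 to 5470 CPM at 48 h and 12100 and 12500 CPM at 72 h, with 4560 to 5520 CPM in naive cells. Naive and central memory genes were lowest at 48 h, 2650 to 2920 CPM, and were at 4250 and 4220 CPM at 72 h against 9630 to 9920 CPM in naive cells.

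**Figure D5:**
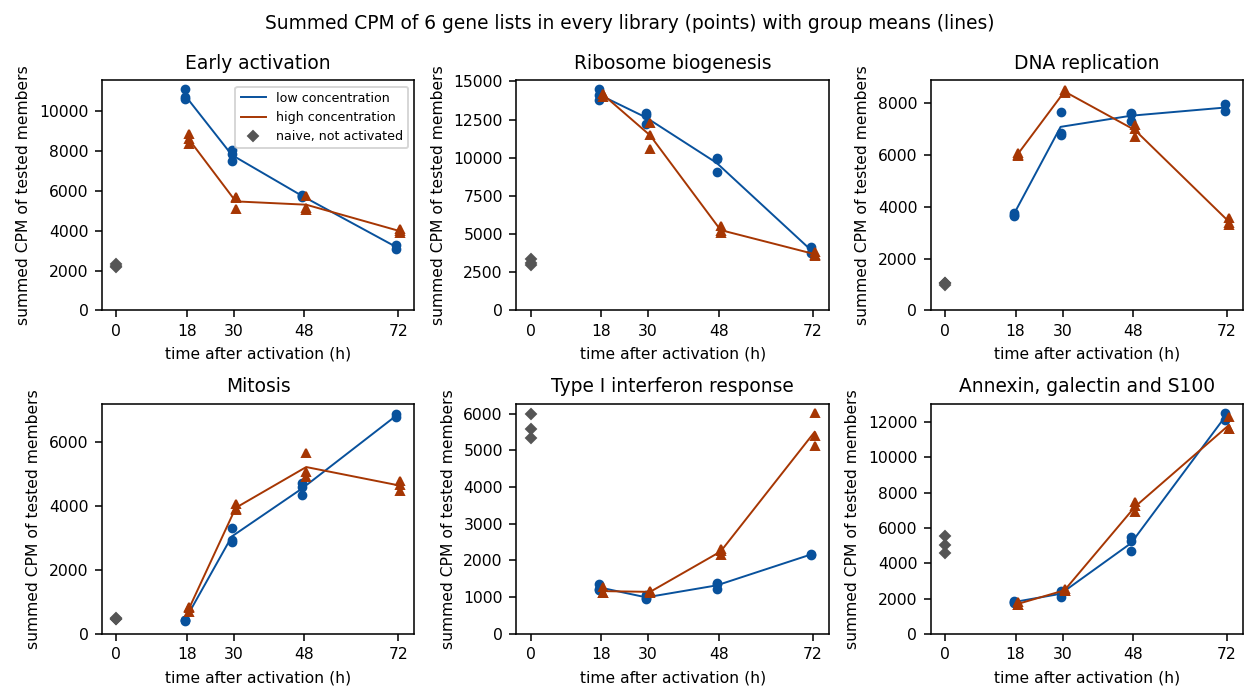
Summed CPM of the tested members of 6 gene lists against time after activation (h), each point 1 library and each line the group means at the low (blue) or high (red) concentration; grey diamonds at 0 are naive cells. Among the activated cultures ribosome biogenesis is lowest at 72 h at both concentrations, above the naive cells, while DNA replication is at 7950 and 7700 CPM at the low concentration and at 3300 to 3580 CPM at the high one. The second title number differs between time points, being 1 in all naive and 18 h libraries and 2 in all 30 h libraries.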

How the data were processed

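The values are read counts per gene, deposited by the authors as 1 table for the second experiment. Per the submitters' processing notes, the tools are bcl2fastq 2.17.1.14, STAR 2.5.2b, HISAT 0.1.5, HTSeq 0.9.1 and FastQC 0.11.7, and the build is mm9. Not given in the sources used here: which aligner made this table, its annotation and strand setting, and whether molecular identifiers were collapsed. The first experiment's table was not used here.

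All 38 libraries (587118 to 3359875 counts, 13 groups) were fitted together in edgeR 4.0.16 (R 4.3.3, limma 3.58.1): filterByExpr with a minimum count of 10, TMM scaling, robust quasi-likelihood test with 25 residual degrees of freedom, Benjamini-Hochberg adjustment and a threshold of 0.05. Of 24421 genes 9239 were tested, and 8924 were at 0 throughout. CPM are counts scaled to a library total of 1e6. The scripts were tested on simulated data. The main fit did not pair libraries by replicate number. Deviations of same-numbered low libraries from their group means correlated at 0.10 and 0.05. With 2 libraries at 72 h their deviations mirror each other, so these values cannot decide whether the numbers mark pairs.

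Named genes are the 14 largest rises and falls and the 8 largest differences each way, called and of at least median level, the 4 members of each of 47 lists with the smallest adjusted p, and a list of lineage genes. Members and lists were chosen with earlier results of these data known. List members that lost their call under an alternative are mostly not named, which was decided with the values known. Egr1, Dusp4, Ccl3, Il9, Nop2, Hspe1, Ccnf, Selplg, Osm, Oas3, Bst2, S100a6, Vim, Slpi and Dnajb6 and the promoters printed were also chosen after their values were seen. Promoters are from RefSeq (GRCm38.p6) and matched 7098 of the tested genes by symbol; 5 motifs were searched in 250 bases. Alternatives were DESeq2 1.42.0, other scalings, no filter, the compared groups alone, the replicate number as a block, the second title number as a covariate, and leaving out libraries.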

Additional observations from a re-analysis of the deposited data

Results flagged for a closer look

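For 16 genes the change from 48 to 72 h differed between the low and the high concentration by the test of the difference itself (edgeR's quasi-likelihood test with Benjamini-Hochberg adjustment), the 8 largest each way. Values are log2 change at the low minus log2 change at the high concentration, with 3 and 2 libraries against 3 and 3. The high libraries at 48 and 72 h carry different second title numbers throughout, so time and that number cannot be told apart there.

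More positive at the low concentration were Hmgn2 (3.33), Mov10 (3.13), Calm3 (2.86), Socs2 (2.58), Mxd3 (2.41), Drc1 (2.26), Kif18b (2.23) and Kbtbd11 (2.16). Hmgn2 and Socs2 fell at the high concentration, by 3.51 and 1.28, as did Calm3, a calmodulin gene, by 1.63. Mov10, an RNA helicase gene, and Mxd3 had log2 changes of -0.45 and -0.05 there, so their difference lay in the rise at the low concentration. With the second title number as a covariate Hmgn2, Mov10, Socs2, Mxd3, Drc1 and Kbtbd11 were still called, with 3.98, 2.91, 2.52, 2.11, 2.37 and 2.01. Calm3 and the kinesin gene Kif18b were not (1.93 and 1.04, adjusted p = 0.198 and 0.507, edgeR). Kif18b stood at 42.7 CPM in 48 h replicate 1 and at 9.78 and 8.84 CPM in the other 48 h low libraries, and its difference was 1.15 with that library alone and 3.34 without it. It was 2.00 (adjusted p = 0.0771, edgeR) without 72 h low replicate 1. Calm3 was at 84.5 CPM in 48 h replicate 1 and at 31.1 and 25.3 CPM in the others, and its difference was 2.00 and 3.58 in the same fits.

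More negative at the low concentration were Ccl4 (-4.26), Il2 (-3.60), Ctsw (-3.03), Cd72 (-2.86), Hivep3 (-2.83), Gadd45b (-2.57), Hsp90aa1 (-2.53) and Tmem184c (-2.31). Ctsw, the cathepsin W gene, had 14.6, 21.3 and 26.9 CPM and then 21.3 and 18.3 CPM at the low concentration, with overlapping groups, and rose by 2.93 at the high one. Cd72 rose by 1.84 at the high concentration. With the covariate Ccl4, Il2, Hivep3 and Gadd45b were still called, with -5.22, -3.94, -2.45 and -2.56. Ctsw, Cd72, Hsp90aa1 and Tmem184c were not, with -2.10, -1.79, -2.50 and -1.38 and adjusted p (edgeR) of 0.18, 0.109, 0.195 and 0.494. Cd72 was at -2.01 with 48 h low replicate 1 alone. Hsp90aa1 also lost its call without 72 h low replicate 1 (-2.35), 72 h low replicate 2 (-2.76), 48 h low replicate 3 (-2.36), 48 h high replicate 1 (-2.22), 48 h high replicate 2 (-2.29) or 72 h high replicate 1 (-2.30), and was at -3.57 without 48 h high replicate 3. Tmem184c lost it without either 72 h low library (-2.33 and -2.31), 48 h low replicate 3 (-2.0), 48 h high replicate 1 (-2.17), 48 h high replicate 2 (-2.15) or 72 h high replicate 3 (-2.16).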

How the results depend on the processing

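The comparison of 72 with 48 h at the low concentration called 2386 genes (1314 higher, 1072 lower), and the test of its difference from the high concentration 1161 (729 and 432). With 1 library left out in turn the first ranged from 1273 (without 72 h low replicate 1) to 2450 (without 48 h low replicate 1), with 733 to 1314 higher and 540 to 1136 lower. Without 72 h low replicate 2 it was 1492. The second ranged from 556 (without 72 h low replicate 1) to 1512 (without 48 h high replicate 3), with 384 to 879 more positive and 172 to 633 more negative. With 48 h low replicate 1 as the only 48 h low library the first was 915 (428 higher, 487 lower) and the second 285 (190 and 95), from fewer libraries. With the second title number as a covariate the second was 296 (198 and 98), and the cause was not tested. The replicate block gave 2232 and 1091, and the labels do not say what same-numbered libraries share. DESeq2, other scalings, no filter and the compared groups alone stayed within 1.5 times of both counts. Genes were named partly for keeping their call, so how many named genes did so says nothing about stability; 6 named genes that were not called gained a call under an alternative. With 2 libraries at 72 h, genes of few counts are imprecise.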
